A study of Mus musculus with 8 samples.

Results

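The dystrophin glycoprotein complex was followed through 9 of its genes, taken from a fixed list of symbols and matched to the Ensembl identifiers of the count table: Dmd, Utrn, Dag1, Sgca, Sgcb, Sgcd, Sgce, Sntb1 and Sntb2. All 9 were among the 27554 genes of the table, and 8 of them passed the filter on low counts that left 11730 genes for testing. Sgcd did not pass it. Polyadenylated RNA had been sequenced from Pax7-positive muscle stem cells, the resident precursor cells of skeletal muscle, which were sorted from hindlimb muscle by fluorescence. All mice, on a C57BL/6NTac background, carried the same pair of reporter alleles per the labels, Pax7tm3955(T2A-ZsGreen)Tac for the stem cell gate and Myf5tm3956(T2A-E2Crimson)Tac for the Myf5 gate. The 4 groups were Myf5High cells of females and of males and Myf5Low cells of females and of males, where High and Low are the opposite ends of E2Crimson fluorescence and so a sorting gate rather than a genotype. Each group had 2 libraries, each from a pool of 4 mice, and the labels used here give no age and no treatment.

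In muscle fibres the complex links the actin cytoskeleton to the basement membrane. Dystroglycan, cut from 1 precursor into an extracellular and a membrane-spanning chain, binds laminin outside the cell and dystrophin inside it, the sarcoglycans form a subcomplex beside it, and the syntrophins are cytoplasmic adaptors. Utrophin is the autosomal relative of dystrophin. In muscle stem cells dystrophin has been linked to cell polarity through the kinase Mark2, and loss of complex members causes muscular dystrophies.

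Gene counts were 3140361 to 4238427 per library, and 3 counts corresponded to 0.672 to 0.986 CPM. Levels are given as CPM, the counts of a gene scaled for the size of its library after TMM normalisation. Library size and TMM factor were taken over the genes that passed the filter on low counts. The sorted cell type was checked against 8 markers of muscle stem cells, all tested, with a summed level of 2809 to 4183 CPM, of which Pax7 gave 1001 to 1498 CPM. The Myf5 transcript, whose reporter set the gate, was at 39.5 to 128 CPM in Myf5High and 25.0 to 49.9 CPM in Myf5Low, so libraries of the fractions overlapped; it was higher in Myf5High, by 1.19 on the log2 scale (0.64 to 1.75; edgeR adjusted p 0.0284). The summed level of 13 muscle fibre markers was 149 to 1166 CPM over the libraries, and none of the 13 was at 0 in every library. Summed markers of endothelial, mural, stromal, glial and immune cells reached at most 420.02, 567, 391, 154 and 84.0 CPM. In such bulk RNA, fewer cells that express a member and less of its RNA per cell cannot be told apart. Log2 fold changes are of Myf5High over Myf5Low (between the fractions) or of females over males (between the sexes), with 95% intervals in parentheses, and a gene was called at an adjusted p under 0.05 over all genes tested.

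The promoter windows of Dag1 and Sgca, the members with the highest levels per exon length, are shown here with the 2 windows that the promoter table holds for Dmd and that of Sgcd, the member with the lowest level. The sequences are RefSeq's on GRCm38.p6, 250 bases before to 50 after a transcript start, read on the strand of the gene, which is plus for Dmd and minus for Dag1, Sgca and Sgcd. Of the 9 members, 6 had a window in that table. That of Sgcd lies inside the annotated gene, whose first base on the minus strand is 47988969. Capitals mark the letters CANNTG, the E-box that the MyoD family and other helix-loop-helix factors can bind, which reads the same on both strands.
Dag1 chr9:108263909-108264208: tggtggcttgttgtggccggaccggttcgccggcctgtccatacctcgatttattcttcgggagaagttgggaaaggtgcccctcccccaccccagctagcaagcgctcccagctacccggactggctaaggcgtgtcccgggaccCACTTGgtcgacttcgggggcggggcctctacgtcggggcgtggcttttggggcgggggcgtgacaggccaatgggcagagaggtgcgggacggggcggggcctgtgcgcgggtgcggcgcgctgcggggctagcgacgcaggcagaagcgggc
Sgca chr11:94976278-94976577: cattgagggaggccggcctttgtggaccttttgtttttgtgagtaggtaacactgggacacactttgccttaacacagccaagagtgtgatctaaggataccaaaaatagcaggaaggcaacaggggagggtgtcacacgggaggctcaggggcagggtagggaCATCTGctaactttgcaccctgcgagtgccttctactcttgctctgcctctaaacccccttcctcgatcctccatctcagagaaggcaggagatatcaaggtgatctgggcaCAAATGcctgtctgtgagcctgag
Dmd, upstream start, chrX:82948620-82948919: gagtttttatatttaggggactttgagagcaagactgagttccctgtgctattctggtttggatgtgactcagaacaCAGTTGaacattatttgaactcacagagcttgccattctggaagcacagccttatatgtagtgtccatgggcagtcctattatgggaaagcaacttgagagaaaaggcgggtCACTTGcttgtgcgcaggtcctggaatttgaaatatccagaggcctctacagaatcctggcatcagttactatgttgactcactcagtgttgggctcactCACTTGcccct
Dmd, downstream start, chrX:85048045-85048344: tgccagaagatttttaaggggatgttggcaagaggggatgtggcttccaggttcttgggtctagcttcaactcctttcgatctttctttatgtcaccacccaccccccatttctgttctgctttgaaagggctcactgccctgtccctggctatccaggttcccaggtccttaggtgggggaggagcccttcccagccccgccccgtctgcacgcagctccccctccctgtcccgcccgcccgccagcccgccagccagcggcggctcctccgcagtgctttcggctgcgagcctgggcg
Sgcd chr11:47379276-47379575: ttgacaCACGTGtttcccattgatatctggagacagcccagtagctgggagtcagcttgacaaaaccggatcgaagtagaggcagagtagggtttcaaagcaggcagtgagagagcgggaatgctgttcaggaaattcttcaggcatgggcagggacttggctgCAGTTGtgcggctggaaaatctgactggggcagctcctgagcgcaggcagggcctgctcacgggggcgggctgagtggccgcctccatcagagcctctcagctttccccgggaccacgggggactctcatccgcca

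Dag1 has another window in the table, which overlaps the one shown, starts at 108263766 and had 75.3% G and C and 47 CG dinucleotides. The Dag1 window shown had 69.7% G and C and 30 CG dinucleotides, against a median of 52.7% and 7 over 32851 windows of the same length. The Sgca window had 52.7% and 4. At Dmd the windows differed, with 45.7%, 2 CG and 3 CANNTG at the upstream start, and 62.7%, 14 CG and 0 CANNTG at the downstream start. Sgcd had 59.0%, 12 CG and 2 CANNTG. The E-box letters were in 72.3% of all windows of this length. The narrower CAGCTG was in 16.3% of all windows and in none of the 8 windows of the 6 members. The deposited counts add up all transcripts of a gene, so for Dmd they do not separate full-length transcripts from shorter ones that begin further downstream.

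The members differed widely in level. Per kilobase of annotated exon, Dag1 was the most abundant, with 180.03 ± 39.5 CPM per kb (SD, n = 8). Sgca had 41.5 ± 14.4, Dmd 24.9 ± 4.64 and Utrn 23.8 ± 4.27 CPM per kb (SD, n = 8 each). Sgcb followed with 14.4 ± 2.48 and Sntb2 with 12.9 ± 3.89, then Sgce with 1.13 ± 0.428 and Sntb1 with 0.456 ± 0.366 CPM per kb (SD, n = 8 each). Sgcd was last at 0.0346 CPM per kb, from 9 reads in all 8 libraries together. With this length, neighbours kept their order in 8 of 8 libraries for Dag1 over Sgca, Sgca over Dmd, Utrn over Sgcb and Sntb2 over Sgce. Dmd was above Utrn in 5 of 8 libraries and Sgcb above Sntb2 in 6 of 8, so these neighbours were not separated beyond their spread. At the low end Sgce was above Sntb1 and Sntb1 above Sgcd in 7 of 8 libraries each, so that order was not held in every library either. The order from Sgca to Utrn depended on the length used. With the longest coding transcript in place of all exons, Sgca was above Dmd in only 3 of 8 libraries, while Dmd was above Utrn in 8 of 8, by 1.12 to 1.35 times. Means of Sgca and Dmd were then 41.8 ± 14.5 and 39.8 ± 7.40 CPM per kb (SD, n = 8 each). With that length Sgce was at 6.73 ± 2.56 CPM per kb (SD, n = 8), and it was below Sntb2 in 7 of 8 libraries and above Sntb1 in 8 of 8.

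**Figure D1:**
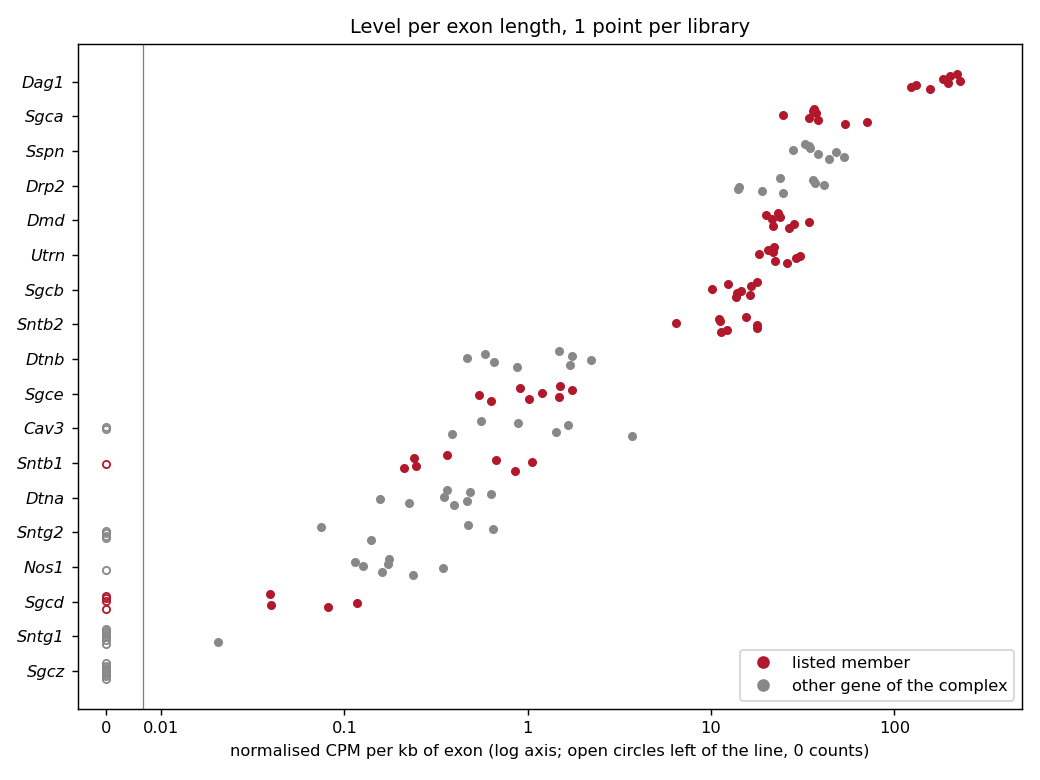
Level of the 9 listed members (red) and 9 other genes of the complex (grey) in normalised CPM per kb of exon on a log axis, with 1 point per library and open circles for libraries with 0 counts. Dag1 lies between 124 and 229 CPM per kb, while Sgcd has 0 counts in 4 libraries and at most 0.116 CPM per kb.

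Dag1 encodes dystroglycan (ENSMUSG00000039952, chromosome 9, 108204634 to 108263958, GRCm38). Its levels, with replicates 1 and 2 in that order here and below, were 1391 and 1284 CPM in the female High libraries and 1169 and 1458 in the female Low ones, against 1248 and 829.8 in the male High and 786 and 989.8 in the male Low ones. High and Low libraries overlapped, and so did female and male libraries, because male Myf5High replicate 1 lay above the lowest female library. Between the fractions the log2 fold change was 0.13 (95% interval -0.26 to 0.52; edgeR adjusted p 0.93). Between the sexes, females against males, it was 0.46 (0.07 to 0.86; edgeR adjusted p 0.259, unadjusted 0.0225), which did not pass the threshold after adjustment. Dag1 made up 45.9% to 73.3% of the summed per-kb level of the 9 members.

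Dmd encodes dystrophin, the rod-like link between actin and dystroglycan (ENSMUSG00000045103, X chromosome, 82948870 to 85206141). It had 551 and 477 CPM in the female High libraries and 565 and 512 in the female Low ones, against 815 and 673 in the male High and 521 and 634 in the male Low ones. Both male Myf5High libraries were above the other 6, and male Myf5Low overlapped with the females. Neither comparison passed the threshold, with a log2 fold change of 0.15 between the fractions (-0.21 to 0.51; edgeR adjusted p 0.903) and -0.32 between the sexes (-0.68 to 0.04; edgeR adjusted p 0.431).

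Utrn, which encodes utrophin (ENSMUSG00000019820, chromosome 10, 12382188 to 12869365), had 377 and 351 CPM in the female High libraries and 371 and 314 in the female Low ones, against 521 and 499 in the male High and 384 and 446 in the male Low ones. Every male library was above every female library, by a narrow margin of 384 against 377 CPM. The same was found on plain gene totals with no scaling. Utrn was the 1 member of the 8 tested whose sexes did not overlap, while 7.08% of all genes tested had sexes that did not overlap. Its log2 fold change between the sexes was -0.38 (-0.73 to -0.03), with an unadjusted p of 0.0359 and an edgeR adjusted p of 0.311, so it was not called. Between the fractions it was 0.19 (-0.16 to 0.55; edgeR adjusted p 0.85).

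The paralogs Dmd and Utrn kept a narrow ratio of CPM. It was 1.46 and 1.36 in the female High libraries and 1.52 and 1.63 in the female Low ones, against 1.56 and 1.35 in the male High and 1.36 and 1.42 in the male Low ones. Per kilobase of exon the ratio lay between 0.97 and 1.17. No group stood apart in it.

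**Figure D2:**
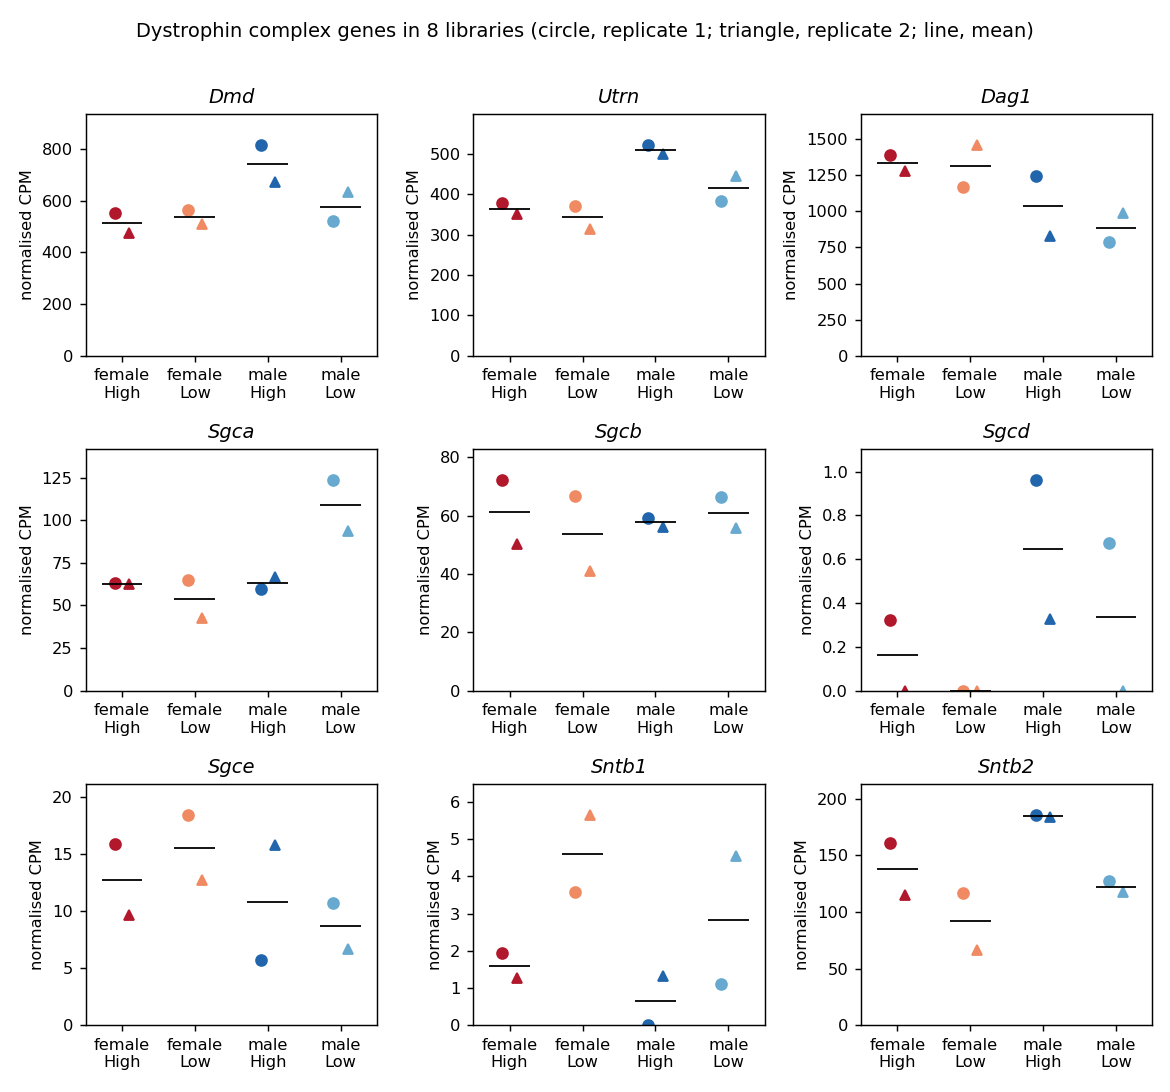
Normalised CPM (linear axes from 0) of each of the 9 members in the 8 libraries, by group; circles are replicate 1, triangles replicate 2 and lines the mean of each group. Utrn is at 384 CPM or more in the male libraries and at 377 or less in the female ones, and Sgca is highest in the male Myf5Low libraries, at 123 and 93.9 CPM.

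The sarcoglycans were uneven. Sgca, for alpha-sarcoglycan (ENSMUSG00000001508, chromosome 11, 94962791 to 94976327), had 63.1 and 62.4 CPM in the female High libraries and 65.1 and 42.8 in the female Low ones, against 59.6 and 66.4 in the male High and 123 and 93.9 in the male Low ones. The male Myf5Low libraries were the highest of the 8, and the remaining 6 lay between 42.8 and 66.4. In males the log2 fold change of High against Low was -0.79 (-1.42 to -0.16; unadjusted p 0.0172, edgeR adjusted p 0.563), and in females 0.22 (-0.42 to 0.85; edgeR adjusted p 0.953). The interaction of sex and fraction (female less male effect) came to 1.01 (0.11 to 1.90; unadjusted p 0.0295, edgeR adjusted p 1.0), which was not called. Over both sexes the log2 fold change between the fractions was -0.28 (-0.73 to 0.16; edgeR adjusted p 0.804), and between the sexes -0.51 (-0.96 to -0.06; edgeR adjusted p 0.284). Sgca is also a muscle fibre gene, and the 13 fibre markers summed to 381 to 912 CPM in male Myf5Low and 373 to 1166 CPM in male Myf5High. The 8 commitment markers summed to 433 to 547 CPM in male Myf5Low and 113 to 245 CPM in male Myf5High, and the 6 mural markers to 263 to 498 and 167 to 203 CPM. The part of these lists in the Sgca levels was not tested.

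Sgcb, for beta-sarcoglycan (ENSMUSG00000029156, chromosome 5, 73632749 to 73647790), showed no pattern by group. It had 72.1 and 50.2 CPM in the female High libraries and 66.8 and 40.9 in the female Low ones, against 59.3 and 56.2 in the male High and 66.3 and 55.7 in the male Low ones. Its 95% intervals were -0.43 to 0.54 on the log2 scale between the fractions and -0.53 to 0.43 between the sexes (edgeR adjusted p 0.981 and 0.954).

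Sgcd encodes delta-sarcoglycan (ENSMUSG00000020354, chromosome 11, 46896253 to 47988969), a subunit of the fibre and smooth muscle complexes. It had 1 and 0 counts in the female High libraries and 0 and 0 in the female Low ones, against 4 and 1 in the male High and 3 and 0 in the male Low ones. The 4 libraries with 0 counts allow a level of up to 0.706 to 0.824 CPM, taken as 3 counts, and no fold change was computed. Sgcz, for zeta-sarcoglycan, had 0 counts in all 8, which allows up to 0.672 to 0.986 CPM per library.

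Sgce, for epsilon-sarcoglycan (ENSMUSG00000004631, chromosome 6, 4674350 to 4747207), is a widely expressed relative of Sgca and is imprinted, with expression from the paternal allele. It had 15.8 and 9.67 CPM in the female High libraries and 18.4 and 12.7 in the female Low ones, against 5.76 and 15.8 in the male High and 10.8 and 6.69 in the male Low ones, from 24 to 67 counts per library. Groups overlapped in both comparisons. At this depth the intervals were wide, -1.11 to 1.11 on the log2 scale between the fractions and -0.34 to 1.42 between the sexes (edgeR adjusted p 1.0 and 0.612). Its neighbours on chromosome 6, the imprinted Peg10 and Ppp1r9a and the gene Casd1, were tested too, and 0 of the 3 were called in either comparison (edgeR, with 0 at an unadjusted p under 0.05 between the fractions and 1 between the sexes; DESeq2 called 0 and 0). The medians of the 3 were -0.20 and -0.08. Casd1, the most abundant of them per kb, had 5.61 ± 1.91 CPM per kb (SD, n = 8).

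The ratio of Sgca to Sgce in CPM varied more than that of Dmd to Utrn. It was 3.98 and 6.45 in the female High libraries and 3.54 and 3.37 in the female Low ones, against 10.3 and 4.21 in the male High and 11.5 and 14.0 in the male Low ones. Male Myf5High replicate 2 lay within the female range, and the other 3 male libraries lay above it.

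**Figure D3:**
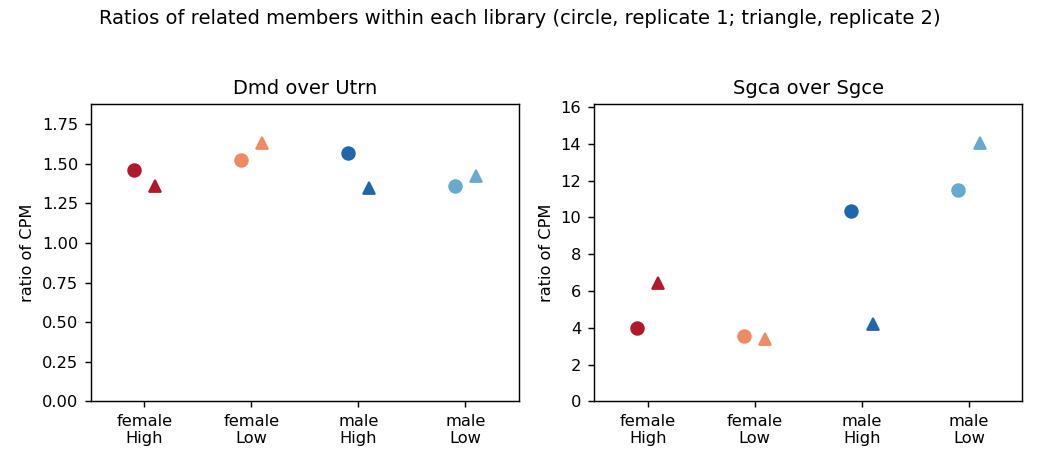
Ratio of CPM of Dmd to Utrn (left) and of Sgca to Sgce (right) in each library by group, on linear axes from 0; circles are replicate 1 and triangles replicate 2. The first lies between 1.35 and 1.63 in all 8 libraries, the second between 3.37 and 14.0.

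Of the beta-syntrophins, Sntb2 was the abundant one. Sntb2, for beta-2-syntrophin (ENSMUSG00000041308, chromosome 8, 106935750 to 107019714), had 161 and 115 CPM in the female High libraries and 116 and 66.8 in the female Low ones, against 185 and 184 in the male High and 127 and 117 in the male Low ones. Within males the High libraries were above the Low libraries, and within females they overlapped narrowly. The log2 fold change between the fractions was 0.59 (SE 0.207; 95% interval 0.16 to 1.03), a fold of 1.51, with an unadjusted p of 0.0104 and an edgeR adjusted p of 0.278 over 11730 genes, so it was not called. By sex it was 0.59 in females (-0.03 to 1.20; edgeR adjusted p 0.696; 0.23 without female Myf5Low replicate 2, 0.31 without female Myf5High replicate 1 and 1.03 without female Myf5Low replicate 1) and 0.60 in males (-0.02 to 1.21; edgeR adjusted p 0.76). Between the sexes it was -0.42 (-0.85 to 0.01; edgeR adjusted p 0.377).

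Sntb1, for beta-1-syntrophin (ENSMUSG00000060429, chromosome 15, 55636388 to 55906949), was close to the detection floor. It had 1.94 and 1.27 CPM in the female High libraries and 3.57 and 5.64 in the female Low ones, against 0 and 1.32 in the male High and 1.12 and 4.54 in the male Low ones, from 0 to 24 counts. The log2 fold change was -1.83 between the fractions (-4.13 to 0.48; edgeR adjusted p 0.698) and 1.02 between the sexes (-1.26 to 3.30; edgeR adjusted p 0.738), and neither a change nor its absence was detectable at this depth. Without male Myf5High replicate 2, which leaves that group with the library at 0, these values were -4.00 and 3.20.

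Across the complex, 0 of the 8 tested members were called between Myf5High and Myf5Low by edgeR at an adjusted p under 0.05, while 1.2% of all genes tested were. Sntb2 was the 1 member at an unadjusted p under 0.05, a level reached by 9.36% of all genes. The median log2 fold change of the 8 was 0.09, beside -0.02 over all genes. None of the 8 had High and Low libraries that did not overlap, which 4.58% of all genes had. Within females and within males 0 members were called by edgeR as well (0 and 1 at an unadjusted p under 0.05), with 0.332% and 0.171% of all genes called and 7.36% and 6.67% at that unadjusted level. For the 6 members with the most counts, the intervals between the fractions were narrowest for Dmd, Utrn and Dag1 (-0.21 to 0.51, -0.16 to 0.55 and -0.26 to 0.52 on the log2 scale), and ran from -0.43 to 0.54 for Sgcb, -0.73 to 0.16 for Sgca and 0.16 to 1.03 for Sntb2. In the same libraries the summed level of 8 markers of myogenic commitment was 113 to 245 CPM in Myf5High and 433 to 1478 CPM in Myf5Low.

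Between females and males 0 of the 8 tested members were called by edgeR, against 1.65% of all genes. Dag1, Utrn and Sgca, 3 of the 8, had an unadjusted p under 0.05, as had 13.9% of all genes, with Dag1 higher and Utrn and Sgca lower in females. For Sgca the female and male means were 62.7 and 63.0 CPM in Myf5High, and 54.0 and 109 CPM in Myf5Low. The median log2 fold change of the 8 was -0.18, beside -0.02 over all genes. Summed endothelial markers were 161 to 246 CPM in females and 212 to 420.02 CPM in males, and summed fibre markers 149 to 659 and 373 to 1166 CPM; their part in the levels of Dag1, Utrn and Sgca was not tested. The interaction of sex and fraction called 0 of 8 members and 0% of all genes by edgeR, with 1 member (Sgca) and 4.54% of all genes at an unadjusted p under 0.05. DESeq2 called 0 members in each of the 5 comparisons. The comparisons share the same 8 libraries and are not independent of each other.

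**Figure D4:**
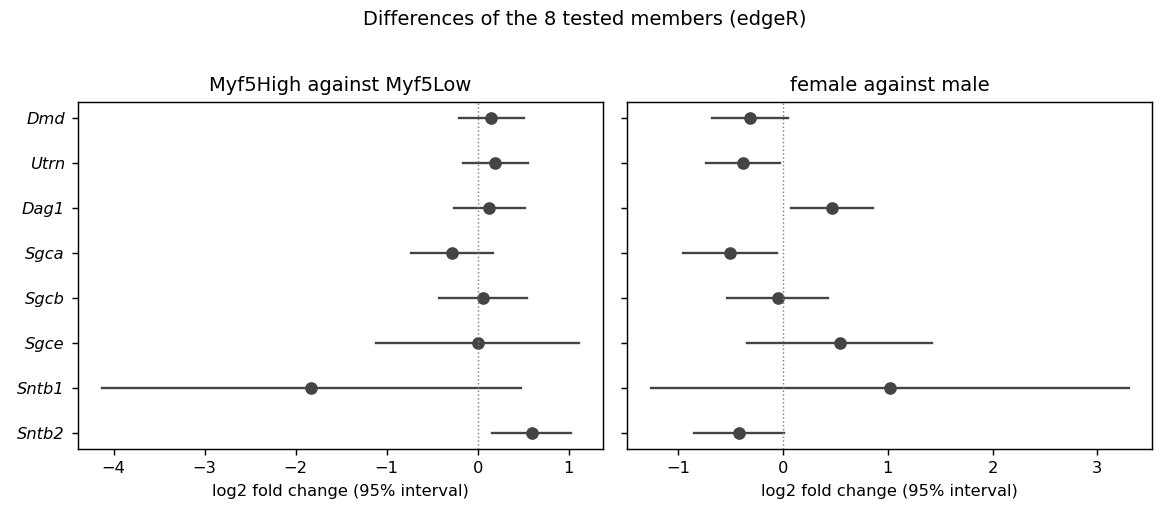
Log2 fold change (points) and 95% interval (lines) of the 8 tested members from edgeR, for Myf5High against Myf5Low (left) and females against males (right). Intervals of Dmd, Utrn, Dag1 and Sgcb between the fractions lie within -0.43 and 0.55, and that of Sntb1 runs from -4.13 to 0.48.

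The other genes of the complex were read from a list of 11, of which 6 were tested. For this and the lists below, edgeR called 1.2% of all genes tested between the fractions and 1.65% between the sexes. An unadjusted p under 0.05 (edgeR) was reached by 9.36% and 13.9% of all genes. Sspn, for sarcospan, was the most abundant per kb, with 39.2 ± 8.46 CPM per kb (SD, n = 8). It had 164 and 172 CPM in the female High libraries and 173 and 139.9 in the female Low ones, against 239.9 and 193 in the male High and 264 and 220.3 in the male Low ones. Every male library was above every female library after scaling, and on plain gene totals the sexes overlapped. Its log2 fold change between the sexes was -0.50 (-0.88 to -0.12; unadjusted p 0.0121, edgeR adjusted p 0.2), which was not called.

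Drp2, for dystrophin-related protein 2, an X-linked relative of dystrophin best known from Schwann cells, was called between the sexes. It had 203 and 306 CPM in the female High libraries and 314 and 354 in the female Low ones, against 122 and 120.003 in the male High and 162 and 210.5 in the male Low ones. Only the lowest female and the highest male library overlapped. It was higher in females, by 0.96 on the log2 scale with a standard error of 0.189, a fold of 1.94 (edgeR adjusted p 0.0118). The call was lost without female Myf5High replicate 2 (edgeR adjusted p 0.103), female Myf5Low replicate 2 (0.0583) or male Myf5Low replicate 1 (0.0578), each with a log2 fold change of 0.79 or more. DESeq2 called Drp2 with 0.95 (DESeq2 adjusted p 0.000157). The 5 glial markers summed to 47.6 to 112 CPM in females and 54.0 to 154 CPM in males, and of the 4 tested none was called between the sexes (edgeR, 0 at an unadjusted p under 0.05; DESeq2 called 0); their part in the Drp2 difference was not tested. Among these 6 genes, Drp2 was the 1 called between the sexes and 0 were called between the fractions (edgeR, 1 at an unadjusted p under 0.05; DESeq2 called 0). The medians of the 6 were -0.07 between the fractions and -0.27 between the sexes. Dtna and Dtnb, for the dystrobrevins, and Nos1, for neuronal nitric oxide synthase, were at or under 1.21 CPM per kb of exon on average (Dtnb 3.16 and Dtna 1.03 with the longest coding transcript).

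Enzymes that build the laminin-binding sugar chains of dystroglycan were read from a list of 18, of which 17 were tested, with Large2 at no more than 1 count per library. None was called between the fractions (edgeR, 2 at an unadjusted p under 0.05; DESeq2 called 0) or between the sexes (edgeR, 1 at an unadjusted p under 0.05; DESeq2 called 0). The median log2 fold changes were -0.03 and -0.04, beside -0.02 over all genes in both comparisons. Dpm3, a subunit of the dolichol-phosphate mannose synthase, was the most abundant per kb, at 60.3 ± 16.6 CPM per kb (SD, n = 8).

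Extracellular partners of dystroglycan, mainly laminin chains and heparan sulphate proteoglycans, gave 13 tested genes of 14, with Lama1 at 0 counts in all 8 libraries, which allows up to the same level. None was called between the fractions (edgeR, 0 at an unadjusted p under 0.05; DESeq2 called 0) or between the sexes (edgeR, 4 at an unadjusted p under 0.05; DESeq2 called 0). The medians were -0.03 and -0.29. The most abundant per kb was Bgn, for the proteoglycan biglycan, with 100.2 ± 24.4 CPM per kb (SD, n = 8). Integrins and partners of the other laminin receptor of muscle, of which Itga7 is also among the stem cell markers, gave 6 of 6 tested and 0 called in both comparisons (edgeR, 2 and 1 at an unadjusted p under 0.05; DESeq2 called 0 and 0). Their medians were 0.19 and -0.05. Itgb1, the integrin beta-1 subunit, was the most abundant of them, with 82.3 ± 11.0 CPM per kb (SD, n = 8).

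Among 15 cytoplasmic partners, 12 were tested, and Krt8 had 0 counts in all 8 libraries. Des, for the muscle intermediate filament desmin, was the 1 gene called between the fractions. It had 2176 and 1817 CPM in the female High libraries and 1367 and 865 in the female Low ones, against 1286 and 1208 in the male High and 628 and 839 in the male Low ones. Within each sex both High libraries were above both Low libraries, and over both sexes the fractions overlapped. Des was higher in Myf5High, by 0.80 on the log2 scale with a standard error of 0.191, a fold of 1.74 (edgeR adjusted p 0.0469). Ank3, for an ankyrin adaptor, was the 1 gene of the 12 whose High libraries (501 to 581 CPM) were all above the Low ones (368 to 424 CPM), with a log2 fold change of 0.47 (0.12 to 0.82; edgeR adjusted p 0.282), which was not called; 4.58% of all genes tested had fractions that did not overlap. Des is also a gene of muscle fibres and mural cells. Fibre markers summed to 149 to 1166 CPM in Myf5High and 381 to 912 CPM in Myf5Low, and mural markers to 151 to 203 CPM in Myf5High and 263 to 567 CPM in Myf5Low; their part in the Des difference was not tested. The call was lost with RLE scaling (edgeR adjusted p 0.0507) and in 5 of 8 fits on 7 libraries, namely without female Myf5High replicate 1 (0.26) or 2 (0.0892), female Myf5Low replicate 2 (0.242), male Myf5High replicate 1 (0.0505) or male Myf5Low replicate 1 (0.193). Over the 8 fits the log2 fold change was 0.65 to 0.98, and DESeq2 called Des with 0.80 (DESeq2 adjusted p 0.00176). None of the 12 was called between the sexes (edgeR, 3 at an unadjusted p under 0.05; DESeq2 called 1, Des, higher in females, against an edgeR adjusted p of 0.108 for it). The medians of the 12 were 0.01 and -0.06. Mark2, the polarity kinase gene, had a log2 fold change of 0.12 between the fractions (-0.30 to 0.54; edgeR adjusted p 0.939) and 0.25 between the sexes (-0.17 to 0.67; edgeR adjusted p 0.624). Actg1, for gamma-actin, had 2 to 14 counts per library beside 13311 to 28476 for Actb; near-identical copies of Actg1 are known in the genome and their part in this count was not tested, so it is taken as uncertain.

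**Figure D5:**
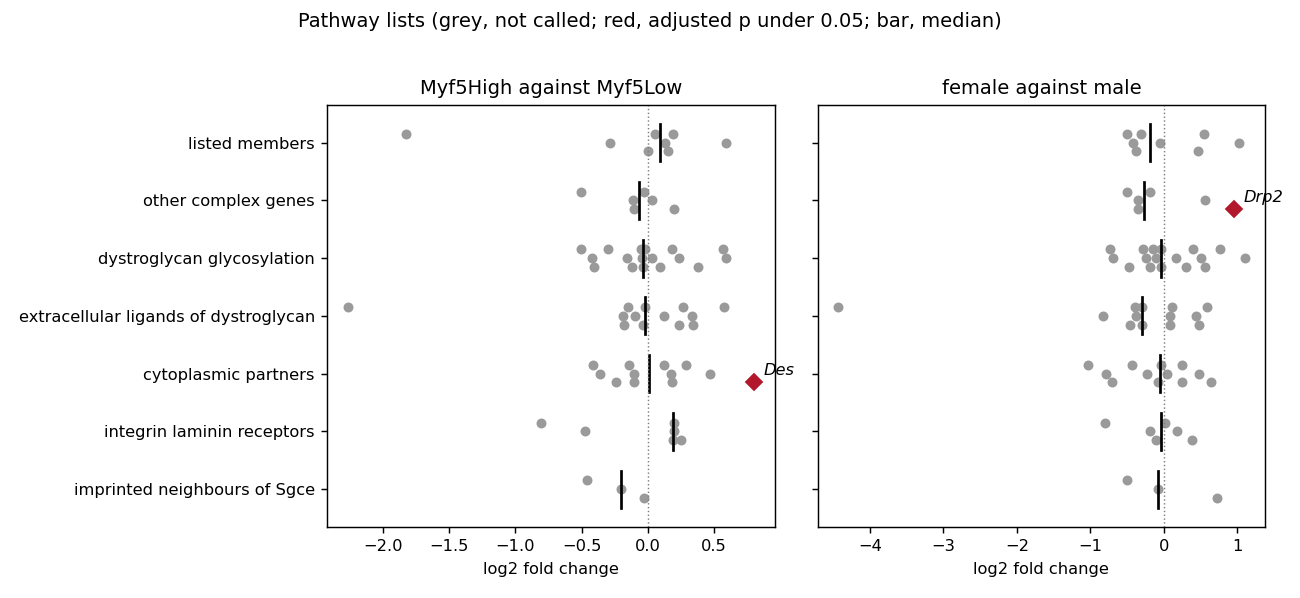
Log2 fold change of each tested gene (1 point per gene, black bar the median) in the members and 6 pathway lists, for Myf5High against Myf5Low (left) and females against males (right). Des (0.80) and Drp2 (0.96) are the only genes marked as called in these lists.

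For 7 of the 8 tested members the gene with the most similar profile over the 8 libraries was taken as the one with the smallest root mean square difference in centred log2 CPM among genes whose mean reached 10 CPM. It was Dhx8 for Dmd (0.07), Golim4 for Utrn (0.07), Chmp2a for Dag1 (0.07), Prrx1 for Sntb2 (0.12), Castor2 for Sgca (0.14), Stard3 for Sgce (0.18) and Lix1 for Sntb1 (0.34), all in log2 units. The SD of the member's own profile was 0.25, 0.25, 0.34, 0.48, 0.45, 0.57 and 1.14 in the same order. No member was the nearest gene of another, and with 7861 or more candidates for each and 8 libraries a close match describes these libraries only.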

How the data were processed

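RNA of sorted cells in 8 libraries, each from a pool of 4 mice, had been sequenced as single reads. The authors deposited raw read counts per gene, made with HTSeq on GRCm38, per the submitters' processing notes; the aligner, annotation release and strand setting are not given in the sources used here. Rows of unassigned reads (no feature 42.0% to 45.3%, ambiguous 0.248% to 0.296% of the table) were left out of library sizes. Symbols came from GENCODE M21, which matched 27518 of 27554 identifiers.

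Counts were filtered with filterByExpr (minimum count 10, total 15) and then TMM-scaled on the genes kept. They were fitted with edgeR 4.0.16 quasi-likelihood tests in R 4.3.3, using all 4 groups. Benjamini-Hochberg adjustment ran over 11730 genes, at a threshold of 0.05. Sex and fraction contrasts averaged over the other factor. P-values measure the spread between the libraries of a group, with all 8 libraries treated as independent. Fractions with the same number may share mice, and the comparison of the sexes would then treat libraries of the same mice as independent. Alternatives were RLE scaling, no filter, DESeq2 1.42.0, leaving out Gm42418 (20.1% to 28.8% of counts), a replicate block, summed pools and leaving out each library. The block was by pool, or by replicate number alone for the comparison of the sexes. Intervals at 0 counts cover counting error only.

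The members and lists were chosen with earlier results of these data known. Besides members, called genes of each list, the most abundant gene per kb of a list with none, genes near 0 and the nearest profile of each member were to be named; Sspn, Dtna, Dtnb, Nos1, Actb, Actg1, Ank3, Peg10, Ppp1r9a and Mark2 were added after their values were seen. Values of some genes of the lists are not reported here.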

Additional observations from a re-analysis of the deposited data

Results flagged for a closer look

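Among the 4 female libraries, Sgca in female Myf5Low replicate 2 stood apart at 42.8 CPM, below 62.4, 63.1 and 65.1 CPM in the others. The gap to the nearest library was 0.878 of the whole range, above Dixon's 95% critical value for 4 samples. Of 32 groups of 4 libraries looked at for the members, 1 stood apart in this way, and chance alone gives about 1 in 20. Without this library the log2 fold change of Sgca between the fractions in females was -0.06.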

How the results depend on the processing

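No member was called in any comparison under any of the alternatives run. Fold changes were followed for 21 results: all 8 tested members between the fractions and between the sexes, Sgca and Sntb2 within each sex, and the Sgca interaction. Of these 281 values, 266 kept their direction, and the lowest adjusted p, from edgeR, was 0.0634, for Dag1 between the sexes without male Myf5High replicate 1 (0.63). Direction turned for Sgce between the fractions, which was -0.00060 and became 0.00091 with RLE scaling, 0.0027 with DESeq2, 0.0068 without Gm42418 and -0.44 to 0.28 when single libraries were left out. With 1 library left out, ranges crossing 0 were also seen for Dag1 (-0.035 to 0.26) and Sgcb (-0.11 to 0.25) between the fractions, Sgcb between the sexes (-0.26 to 0.10) and Sgca between the fractions in females (-0.064 to 0.54). Sntb1 ranged from -4.00 to -1.16 between the fractions and from 0.49 to 3.20 between the sexes. Over all alternatives run, Dmd and Sgca between the fractions ranged from 0.078 to 0.22 and from -0.42 to -0.12, and Sntb2 and Sgce between the sexes from -0.66 to -0.25 and from 0.26 to 0.98. The causes were not tested.

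Counts of all genes called moved more: between the fractions 141 became 291 with no filter and 234 with DESeq2 (82 to 243 with 1 library left out), and between the sexes 194 became 477 and 371 (82 to 558). Within females 39 became 167 and 112 (9 to 117), within males 20 became 111 and 72 (8 to 74), and for the interaction 0 became 14 and 2 (0 to 8).

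Same-numbered pools deviated together by a correlation of 0.03 in females and -0.00027 in males. A value near 0 over all genes tested cannot decide whether they share mice, since noise of single libraries can hide a shared part. The main fit did not pair the samples by number. A block for each pool (sex and number together) gave 136 genes between the fractions, 33 in females, 26 in males and 0 for the interaction. The sexes cannot be compared within pools. For them a different block, for the replicate number alone and shared by females and males, gave 135. Pools summed over the fractions gave 212 between the sexes. Neither block changed a member call, and with the pool block Sntb2 between the fractions was at 0.61 (edgeR adjusted p 0.248).

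With the longest coding transcript as length, chosen after seeing the data, Utrn moved from 23.8 to 32.9 and Sgcd from 0.0346 to 0.117 CPM per kb. Depth limits Sgcd, Sntb1 and Sgce most.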
